A study of Mus musculus with 12 samples.

Results

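The miR-290 to miR-295 cluster was followed in small RNA libraries of sorted mouse embryonic cells from embryonic day (E) 8.5 to E11.5. Its members were taken by name, as every row of the count table from mmu-miR-290 to mmu-miR-295 (mmu is the prefix for mouse), with or without the letter a or b and in either spelling, miR or mir. This gave 19 of 1053 entries, of which 12 were mature arms (miR, with the suffix 5p or 3p for the side of the hairpin they are cut from) and 7 were precursors (mir, reads assigned to the hairpin). Each stage had 3 libraries. At E8.5 the cells were endoderm with the genotype Foxa2-CreER, tdtomato+, sorted from whole embryos after tamoxifen was given at E6.5. The Cre there is inducible and is expressed from the Foxa2 locus, which besides endoderm is also active in the node, the notochord and the floor plate. The cells of the later stages (E9.5, E10.5, E11.5), labelled as pancreas, were Pdx1-Cre, tdtomato+ and came from the trunk. Pdx1 is expressed in the early pancreas and duodenum, and a cell stays marked after Pdx1-Cre has acted in it. Per the study's methods, males of the lineage-tracing crosses carried a mir-302-eGFP reporter allele. Whether the sequenced embryos inherited it is not given in the sources used here, and no source names an allele of the miR-290 cluster itself. Between E8.5 and E9.5, stage, Cre driver and dissected tissue thus all differed, and these cannot be told apart. The library names carried a number that coincided with stage, so a batch marked by that number cannot be told apart from stage either.

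Mature miRNAs are short RNAs that guide Argonaute proteins to messenger RNAs, chiefly by pairing of the seed, bases 2 to 8 from their 5′ end. The miR-290 cluster is transcribed as a single primary transcript. It is known as the dominant miRNA locus of mouse embryonic stem cells and of the early embryo, and it is silenced as cells differentiate. Its 3p arms with the AAGUGCU seed, miR-291a-3p, miR-294-3p and miR-295-3p, are known to speed the entry of stem cells into DNA synthesis and to aid reprogramming. Arms of the miR-302 and miR-367 cluster share that seed. Less is known of the 5p arms.

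The sequences of the arms show which members can be expected to bind alike, since arms with the same seed share most of their targets. RefSeq held a sequence for 11 of the 12 mature arms and not for mmu-miR-292a-3p. These arms were 22 or 23 bases long and carried 6 different seeds, shown in capitals. The 3 arms with the seed CUCAAAC included the most abundant member, mmu-miR-292a-5p.
mmu-miR-292a-5p (chr7:3219200-3219221): aCUCAAACugggggcucuuuug
mmu-miR-293-5p (chr7:3220356-3220377): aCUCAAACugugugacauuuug
mmu-miR-290a-5p (chr7:3218639-3218660): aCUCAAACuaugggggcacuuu
The motif CUCAAA at bases 2 to 7 was found, on the strand of the mature arm, in 5 of the 11 arms, since miR-294-5p (seed CUCAAAA) and miR-295-5p (seed CUCAAAU) also carry it. It was found in 6 of all 1679 mature sequences of the RefSeq table (0.357%). The 5p arms of miR-291a and miR-291b shared the seed AUCAAAG and differed at 2 of 22 bases, so how reads were split between them is uncertain.
mmu-miR-291a-5p (chr7:3218932-3218953): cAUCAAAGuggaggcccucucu
mmu-miR-291b-5p (chr7:3219494-3219515): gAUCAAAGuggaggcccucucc
The arms with the seed AAGUGCU are shown beside miR-302b-3p (chr3:127545275-127545297), which carries the same seed.
mmu-miR-294-3p (chr7:3220691-3220712): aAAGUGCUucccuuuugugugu
mmu-miR-295-3p (chr7:3220815-3220837): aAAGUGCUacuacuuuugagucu
mmu-miR-302b-3p: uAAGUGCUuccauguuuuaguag
The arm of miR-293 on the 3p side carried a seed of its own, GUGCCGC.
mmu-miR-293-3p (chr7:3220390-3220411): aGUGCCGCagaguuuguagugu

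All positions are on GRCm38, the build called mm10, and these arms lie on the plus strand. The annotation places 9 hairpins within chromosome 7, 3218626 to 3220841, a stretch of 2216 bases. Of these, 7 lie on the plus strand. The other 2, Mir290b and Mir292b, lie on the minus strand opposite Mir290a and Mir292. Mir290a and Mir290b lie between genes, and the other hairpins lie wholly within the 3′ UTR part of exon 10 of Nlrp12, a minus-strand gene of innate immunity. Whether the counting used strand is not given in the sources used here.

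The libraries held 53996 to 1103383 counts, and the E9.5 libraries (53996 to 80075 counts) were the smallest. Levels are given as CPM, read counts scaled to a common library total. In the E9.5 libraries 3 counts, taken as the limit that a count of 0 allows, stood for 32.2 to 76.3 CPM. In the E11.5 libraries the same limit was 2.76 to 6.88 CPM. These limits and all intervals below cover counting error only, since the counts are reads after PCR. The 6 epithelial miRNAs used to check the labelled endoderm and pancreas (miR-375-3p and 5 members of the miR-200 family) were detected at every stage, with summed levels of 27992 ± 2255, 43111 ± 6458, 88019 ± 14698 and 85106 ± 18188 CPM from E8.5 to E11.5 (SD, n = 3 each).

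The summed level of the mature arms was lower at each successive stage, and no library of a later stage reached the level of any library of an earlier one. At E8.5 the sum was 22764, 23222 and 22603 CPM in the 3 libraries, a mean of 22863 ± 321 (SD, n = 3). At E9.5 it was 13479, 5855 and 5876 CPM (8403 ± 4396), and the first of these libraries stood apart from the other two. At E10.5 it was 728, 1676 and 1372 CPM (1259 ± 484). At E11.5 it was 147, 328 and 588 CPM (354 ± 222). The mean was 2.72-fold lower at E9.5 than at E8.5, a further 6.68-fold lower at E10.5 and a further 3.55-fold lower at E11.5, which made 64.5-fold in all. The narrowest gap lay between E10.5 and E11.5, where the lowest E10.5 library (728 CPM) stood just above the highest E11.5 library (588 CPM). In bulk samples such as these, fewer cells that carry the cluster and less of it per cell cannot be told apart.

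**Figure D1:**
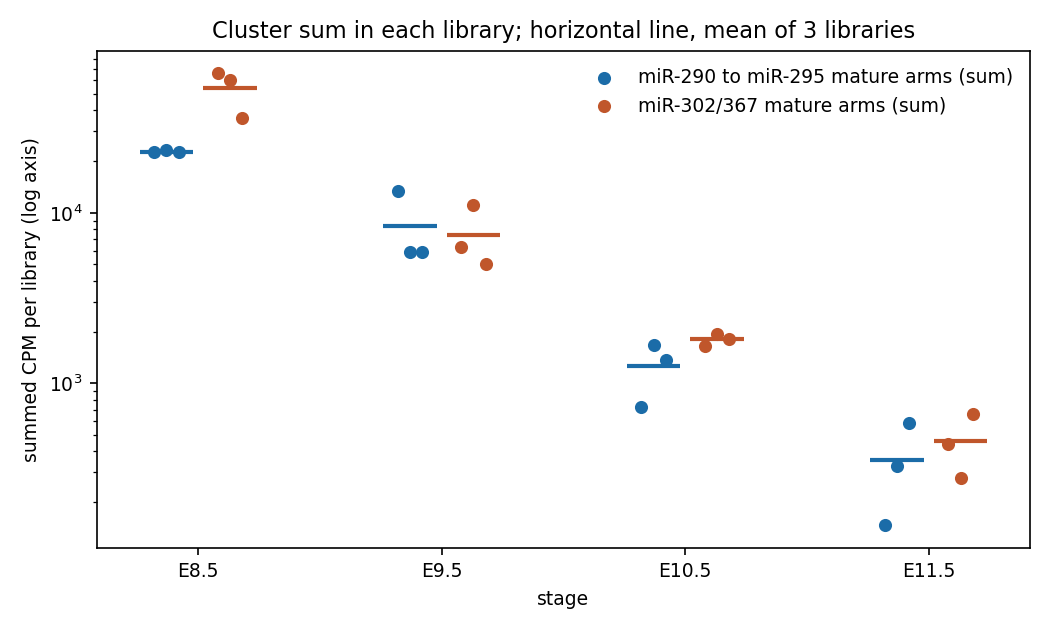
Summed CPM (log axis) of the 12 mature arms of the miR-290 to miR-295 cluster and of the miR-302 and miR-367 arms in each of 12 libraries, by stage, with lines at the mean of 3 libraries. The cluster's points step down from about 22863 CPM at E8.5 to 354 CPM at E11.5 with no overlap between neighbouring stages.

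As a share of all miRNA counts, without scaling, the mature arms took 2.48% ± 0.153, 0.798% ± 0.441, 0.1205% ± 0.043 and 0.0352% ± 0.0214 from E8.5 to E11.5 in order (n = 3 each). E9.5 replicate 1 held 1.29% (95% Wilson interval 1.20% to 1.38%), above E9.5 replicate 2 (0.681%, 0.626% to 0.740%) and replicate 3 (0.428%, 0.376% to 0.486%), so these libraries differed by more than counting error. The number of arms with 10 or more counts was 12 in every E8.5 library, 2 to 5 in those of E9.5 and 2 or 3 in the rest. When miR-292a-5p was left out, the sum was 11967 ± 643, 3366 ± 2893, 828 ± 600 and 167 ± 83.1 CPM in stage order, and E9.5 and E10.5 then overlapped (lowest E9.5 library 941 CPM, highest E10.5 library 1512 CPM). The lack of overlap between E9.5 and E10.5 in the sum thus rested on miR-292a-5p, whereas the mean still fell without it. The library at 1512 CPM was E10.5 replicate 2, where miR-292a-3p (709 CPM) and miR-291b-5p (700 CPM) were high.

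The 10 entries with at least 1000 counts in total are given library by library, in the order of replicates 1 to 3. The 5p arms with the seed CUCAAAC are described first. mmu-miR-292a-5p had 6241, 4073 and 7733 counts at E8.5, then 423, 304 and 194 (E9.5), 88, 19 and 202 (E10.5) and 18, 212 and 270 (E11.5). It was the only entry of the cluster with 10 or more counts in all 12 libraries. Its mean level was 10896 ± 333, 5037 ± 1825, 431 ± 324 and 188 ± 143 CPM in stage order. The E8.5, E9.5 and E10.5 libraries did not overlap with each other on this scale, whereas E10.5 and E11.5 did.

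miR-293-5p had 936, 699 and 1235 counts at E8.5, then 3, 75 and 4 (E9.5), 30, 1 and 4 (E10.5) and 3, 4 and 5 (E11.5). mmu-miR-290a-5p had 544, 435 and 310 counts at E8.5, then 45, 6 and 2 (E9.5), 1, 2 and 5 (E10.5) and 0, 4 and 0 (E11.5). For both, 1 library at E9.5 held most of the later counts. The 3 arms together took 59.0% ± 0.715 of the cluster's mature counts at E8.5.

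The arms with the seed AUCAAAG were almost confined to E8.5. mmu-miR-291a-5p was at 638.5, 519.7 and 1271.1 CPM there, the last of these on 874 counts, and had 0 to 5 counts in each of the 9 later libraries. miR-291b-5p had 827, 392 and 1016 counts at E8.5 and 2 to 8 counts in 8 of the later libraries, but 81 counts in E10.5 replicate 2. In that library the near-identical miR-291a-5p had 5 counts.

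Among the arms with the stem cell seed AAGUGCU, mmu-miR-294-3p had 599, 447 and 1046 counts at E8.5, then 257, 72 and 6 (E9.5), 3, 1 and 3 (E10.5) and 0, 113 and 75 (E11.5). Its mean level was 1242 ± 249, 1708 ± 2179, 10.6 ± 1.73 and 64.9 ± 56.6 CPM in stage order. It was the only member of the cluster whose mean was higher at E9.5 than at E8.5, and that mean rested on E9.5 replicate 1 (4199 CPM, against 773 and 153 CPM in the other two). miR-295-3p had 458, 252 and 440 counts at E8.5 and 0 to 5 counts in every later library. miR-291a-3p, with fewer than 1000 counts, had 137 to 190 counts at E8.5 and 0 to 2 in every later library.

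The 3p arms of the other hairpins were among the most abundant members at E8.5. mmu-miR-293-3p had 1409, 1116 and 1494 counts at E8.5, then 39, 65 and 11 (E9.5), 61, 3 and 119 (E10.5) and 40, 15 and 9 (E11.5). Its mean was 2508 ± 366.95, 538 ± 226, 242 ± 220 and 38.8 ± 45.9 CPM from E8.5 to E11.5. mmu-miR-292a-3p had 1372, 980 and 811 counts at E8.5, then 5, 7 and 5 (E9.5), 3, 82 and 6 (E10.5) and 1, 1 and 116 (E11.5). Outside E8.5 it was above 10 counts only in E10.5 replicate 2 and E11.5 replicate 3.

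Precursor entries were a minor part of the cluster at E8.5, where they took 6.62% ± 0.968 of its counts. Their entries are longer than the mature arms, so these counts are not compared with those of the arms per base. mmu-mir-292a, the hairpin of the most abundant arm, had 671, 430 and 646 counts at E8.5, then 9, 43 and 47 (E9.5), 2, 1 and 95 (E10.5) and 133, 18 and 3 (E11.5). In E11.5 replicate 1 its 133 counts were more than all 64 counts of the mature arms, so precursors made up 68.3% of the cluster there, against 5.31% and 1.02% in the other E11.5 libraries. The other 6 precursors had 47 to 438 counts in total. Of these, mir-294 had 98 of its 99 counts in E8.5 replicate 3, and mir-295 had 22 counts in E9.5 replicate 1 and at most 1 in any other later library.

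**Figure D2:**
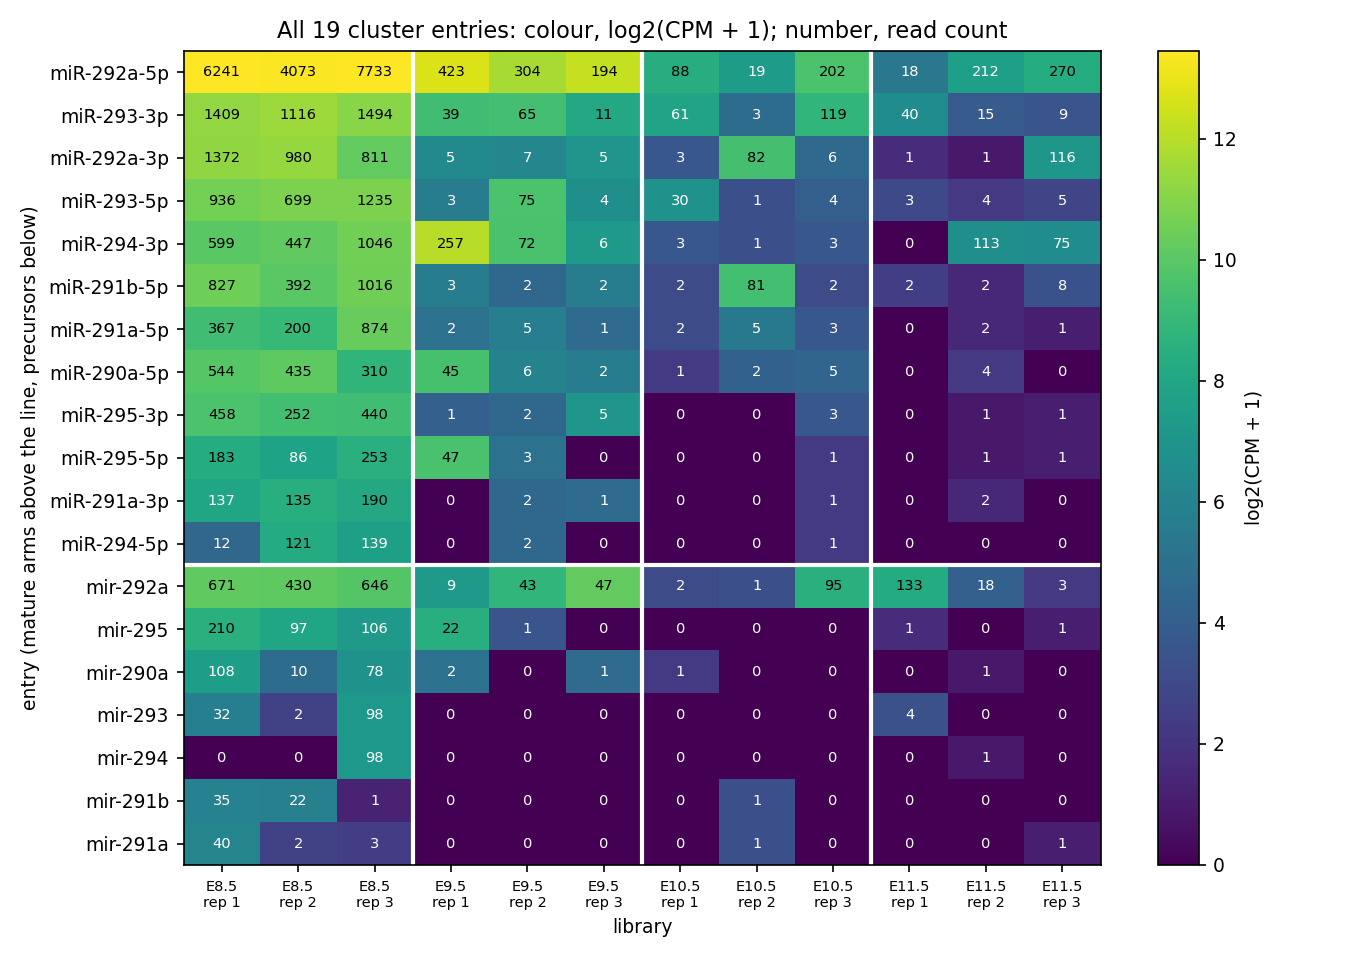
All 19 entries (rows, mature arms above the line and precursors below) in the 12 libraries (columns), coloured by log2(CPM + 1), with the read count printed in each cell. The E8.5 columns are filled in nearly every row, and at the later stages single cells stand out, such as 81 counts of miR-291b-5p in E10.5 replicate 2.

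At E8.5 the share of miR-292a-5p was alike in the 3 libraries. Those of some other arms varied more for their size, such as miR-291a-5p (2.24% to 5.62%) and miR-290a-5p (1.99% to 4.87%). miR-292a-5p took 47.7% ± 2.09 of the mature counts, followed by miR-293-3p with 11.0% ± 1.45, miR-292a-3p with 8.89% ± 3.19 and miR-293-5p with 7.64% ± 0.427. In CPM, miR-292a-5p did not overlap with any other arm, whereas miR-293-3p (2173 to 2900 CPM) overlapped with miR-292a-3p (1180 to 2547 CPM), and the latter with miR-293-5p (1628 to 1816 CPM). The least abundant arm with a test was miR-291a-3p at 288 ± 57.2 CPM, which overlapped with miR-295-5p at 303 ± 73.4 CPM. By hairpin, the summed level of the listed arms was not graded along the cluster. The hairpin of miR-292a, 563 bases from the start of the first, gave 12934 ± 443 CPM. That of miR-293, 1717 bases from it, gave 4255 ± 404 CPM, whereas the other 5 lay between 843 and 1421 CPM on average. Of these 5, miR-290a and miR-291b had only the 5p arm listed, so their sums hold 1 arm against 2 for every other hairpin. At the later stages the make-up scattered. The share of miR-292a-5p spanned 51.3% to 84.0% (E9.5), 9.79% to 57.7% (E10.5) and 28.1% to 59.4% (E11.5). miR-292a-3p and miR-291b-5p took 42.3% and 41.8% of the cluster in E10.5 replicate 2, and miR-293-3p took 62.5% of the 64 counts in E11.5 replicate 1.

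**Figure D3:**
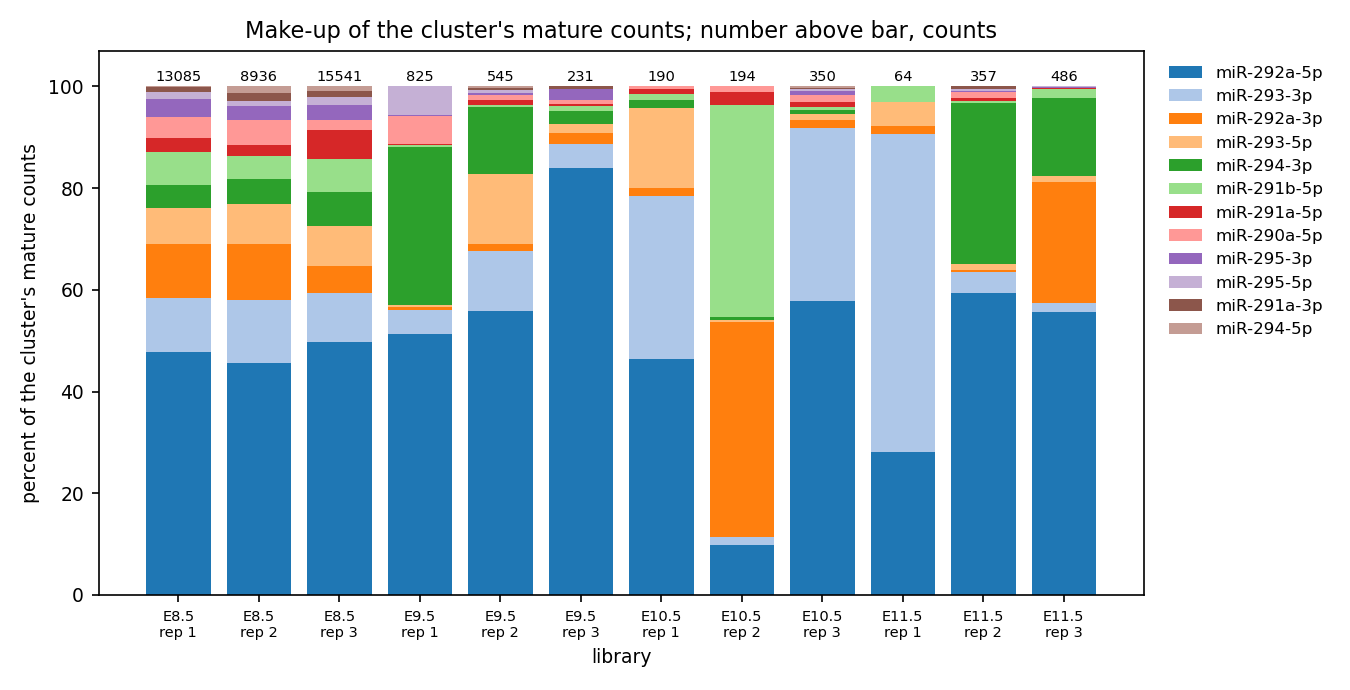
Percent of the cluster's mature counts taken by each of the 12 mature arms (stacked bars) in each library, with the number of counts above each bar. In the 3 E8.5 bars miR-292a-5p is near 47.7%. The later bars, built on 64 to 825 counts, differ more in its share between libraries of the same stage.

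Where both arms of a hairpin were listed, the favoured arm differed by hairpin at E8.5. The 5p arm took 84.4% ± 5.36 of the reads of miR-292a and 71.6% ± 11.3 of those of miR-291a. It took 41.2% ± 3.56 of miR-293, 30.2% ± 5.71 of miR-295 and 11.7% ± 9.67 of miR-294 (n = 3 each). For miR-292a the share was 80.6% to 90.5% in the E8.5 libraries and 97.5% to 98.8% in the E9.5 libraries, which held 199 to 428 counts of both arms, so the stages did not overlap. The difference of 13.7 percentage points had p = 0.1 by a two-sided exact permutation test, which is the smallest that 3 against 3 libraries allow, and an adjusted p of 0.3 over the 3 hairpins tested. miR-293 (exact p = 0.5) and miR-294 (exact p = 0.2) gave no smaller values. In E10.5 replicate 2 the order was turned, with 18.8% (95% Wilson interval 12.4% to 27.5%) of the miR-292a counts on the 5p arm, 19 against 82 on the 3p arm.

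For the tests, 14 of the 19 entries passed the filter on low counts among 571 entries tested. The 5 that did not were mir-291a, mir-291b, mir-293, mir-294 and miR-294-5p. Of the 14, 9 were above the filter's limit of 30.6 CPM in 3 or more libraries of E9.5 to E11.5. Some of these passes rested on few counts, since 2 counts cleared the limit in some of the small E9.5 libraries. After E8.5, miR-291a-5p passed on 2, 5 and 5 counts and miR-291b-5p on 3, 2 and 81. The other 5 of the 14 (miR-291a-3p, miR-295-3p, miR-295-5p, mir-290a and mir-295) passed with the help of E8.5, where they were highest. Their calls, negative values and lack of overlap against E8.5 thus carry no weight of their own. Log2 fold changes below are later over earlier, with standard errors (SE), from the quasi-likelihood test of edgeR with Benjamini-Hochberg adjustment over all entries tested. An entry was called at an adjusted p under 0.05. The libraries of a stage are taken as replicates by their titles. Nothing says that they came from separate litters, so the p-values measure the spread between these libraries, which may be partly technical.

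The E9.5 against E8.5 comparison asked how the cluster differs between endoderm and the first Pdx1-Cre-labelled cells. Of the 14 entries tested, 13 had a negative log2 fold change. None was called by edgeR, against 1.58% of all entries called lower by edgeR. DESeq2 called 2 of the 14. Its share over all entries is not given here, so its counts are not set against the edgeR shares. In the edgeR test 5 of the 14 had an unadjusted p under 0.05, and 114 among all entries. The median log2 fold change was -2.32 for the cluster and -0.84 for all entries. The most negative was miR-291b-5p, which went from 1312 ± 254 to 40.5 ± 16.5 CPM (log2 fold change -5.05, SE 1.62, adjusted p 0.071). miR-292a-3p went from 2038 ± 747 to 94.7 ± 28.3 CPM (-4.44, SE 1.64, adjusted p 0.129) and miR-291a-5p from 809.8 ± 404 to 37.3 ± 14.7 CPM (-4.40, SE 1.55, adjusted p 0.11). miR-292a-5p was nearer to the median of all entries, at -1.11 (SE 0.638, adjusted p 0.287), and miR-294-3p was at 0.46 (SE 1.18). Under RLE scaling the median over all entries moved up by 0.64, which turned miR-295-5p from -0.18 to 0.31. The E9.5 libraries were wholly below those of E8.5 for 8 of the 14 and for 27.5% of all entries tested. With a count of 0 set at the limit of 3 counts of its library, these were 8 of 14 and 21.7%. The cluster's counts and median in this comparison include the 5 entries that passed the filter with the help of E8.5. All of those had negative values. Of them, miR-291a-3p and miR-295-3p were among the 8, and miR-295-3p also had an unadjusted p under 0.05. miR-291b-5p was called without E10.5 replicate 2 (adjusted p 0.0239) or E10.5 replicate 3 (adjusted p 0.0337), and miR-292a-3p without E11.5 replicate 3 (adjusted p 0.0463). Both were also called by edgeR with no filter on low counts (adjusted p 0.043 and 0.0247). The same held with only the compared stages in the fit (0.039 and 0.0393). The 2 entries called by DESeq2 were miR-291b-5p (adjusted p 0.0188) and miR-291a-5p (0.0091). Without E9.5 replicate 1, miR-294-3p was at -1.47.

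The E10.5 against E9.5 comparison followed the cluster within Pdx1-Cre-labelled cells. The edgeR test called 2 of 14 entries lower, against 2.8% of all entries, and none higher. DESeq2 called 6, and its share over all entries is not given here. miR-292a-5p fell from 5037 ± 1825 to 431 ± 324 CPM (log2 fold change -3.54, SE 0.698, adjusted p 0.00615), and all 3 E10.5 libraries were below all E9.5 libraries. miR-294-3p fell from 1708 ± 2179 to 10.6 ± 1.73 CPM (-7.26, SE 1.59, adjusted p 0.00853), again without overlap. Its size depended on E9.5 replicate 1, without which it was -5.34 and still called, and leaving out E10.5 replicate 2 ended its call (adjusted p 0.056). A further 4 entries had an unadjusted p under 0.05, which made 6, and 104 did so among all entries. The median was -3.28 for the cluster and 0.17 for all entries. With mir-295, which had 0 counts in every E10.5 library, set at its bound (at least 7.53-fold lower than at E9.5, against the mean of the libraries' limits of 3 counts) the cluster's median was -3.02. That bound rested on E9.5 replicate 1 (359 CPM), without which the mean of mir-295 at E9.5 was 5.37 CPM, under the limit of 16.4 CPM, and no fall was bounded. miR-291b-5p and miR-292a-3p had positive values (2.57, adjusted p 0.349, and 1.39, adjusted p 0.602), which rested on E10.5 replicate 2 and turned to -2.32 and -2.40 without it. E10.5 lay wholly below E9.5 for 4 of the 14 and for 7.01% of all entries tested. With a count of 0 set at the limit, miR-295-3p was no longer below, which left 3 of 14 and 5.25%.

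In the E11.5 against E10.5 comparison none of the 14 entries was called by edgeR, against 0.35% of all entries called lower by edgeR. DESeq2 called 1, miR-291b-5p, and its share over all entries is not given here. There were 4 entries of the cluster with an unadjusted p under 0.05, and 61 among all entries. The median was -1.74 for the cluster (-2.08 without mir-295, which was at 0 at E10.5) and 0.07 for all entries. miR-291b-5p was at -5.38 (SE 1.61, adjusted p 0.282), with 81 of its 85 E10.5 counts in replicate 2. miR-292a-5p was at -1.20 (SE 0.642, adjusted p 0.503), and miR-294-3p had a positive value of 2.56 (SE 1.34, adjusted p 0.503). E11.5 lay wholly below E10.5 for 3 of the 14 (miR-290a-5p, miR-291a-5p and miR-293-5p) and for 3.68% of all entries tested. With a count of 0 set at the limit, miR-290a-5p was no longer below, which left 2 of 14 and 3.33%.

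Over the whole span, E11.5 against E8.5, 11 of 14 entries fell by the edgeR test, against 6.3% of all entries called lower. All 14 had negative values and an unadjusted p under 0.05, and 133 of all 571 entries tested had such a p. The counts for the cluster, and its median and overlap given below, include the 5 entries that passed the filter with the help of E8.5. Of these, miR-291a-3p, miR-295-3p and miR-295-5p were among the 11. Of the other 9 entries, only mir-292a was not called. The median was -7.70 for the cluster and -0.07 for all entries. miR-292a-5p fell from 10896 ± 333 to 188 ± 143 CPM (log2 fold change -5.85, SE 0.776, adjusted p 1.05e-05). miR-293-3p fell from 2508 ± 366.95 to 38.8 ± 45.9 CPM (-6.03, SE 1.25, adjusted p 0.00165), and miR-293-5p from 1747 ± 103 to 5.54 ± 1.66 CPM (-8.25, SE 1.55, adjusted p 7.39e-04). miR-290a-5p was at -8.94 (SE 1.92, adjusted p 0.0023), miR-291a-5p at -9.14 (SE 1.87, adjusted p 0.00157) and miR-291b-5p at -7.86 (SE 1.79, adjusted p 0.00369). These 5p arms had at most 8 counts in an E11.5 library, so the size of their fold changes depends on a handful of reads.

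The arms with the stem cell seed also had negative values over that span, and differences between these arms were not tested. In each E11.5 library miR-295-3p and miR-291a-3p had only 0 to 2 counts. miR-295-3p was at -9.32 (SE 2.11, adjusted p 0.00345) and miR-291a-3p at -8.16 (SE 2.43, adjusted p 0.0299), whereas miR-294-3p fell from 1242 ± 249 to 64.9 ± 56.6 CPM, at -4.24 (SE 1.34, adjusted p 0.041). miR-292a-3p was at -5.40 (SE 1.68, adjusted p 0.039) and miR-295-5p at -8.13 (SE 2.32, adjusted p 0.0228). The 3 entries not called were all precursors: mir-292a went from 1075 ± 120 to 108 ± 170 CPM (-3.32, SE 1.54, adjusted p 0.19), mir-295 was at -7.55 (adjusted p 0.0554) and mir-290a at -7.36 (adjusted p 0.0623). Without E11.5 replicate 1, which held 133 of the 154 counts of mir-292a at that stage, its value was -6.51 and was called (adjusted p 0.0351). The E11.5 libraries were wholly below those of E8.5 for 14 of the 14 and for 21.2% of all entries tested, also with a count of 0 set at the limit (14 of 14 and 21%). miR-294-5p had 0 counts in all E11.5 libraries and was at least 40.5-fold lower there than its 179 ± 148 CPM at E8.5, against the mean limit of 3 counts per library. The bound was 25.2-fold without E8.5 replicate 2, and the E8.5 libraries stood at 20.9, 314 and 202 CPM.

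Some of these 11 calls depended on single libraries. The calls of miR-291a-3p (highest adjusted p 0.14) and miR-294-3p (0.111) were lost when any of the 6 libraries of E8.5 or E11.5 was left out. That of miR-292a-3p (0.114) was lost without any E8.5 library and without E11.5 replicate 1 or 2, and that of miR-295-5p (0.0987) without E8.5 replicate 1 or 3 and without any E11.5 library. The number called was lowest, at 7, without E8.5 replicate 3 (of 14 tested) or without E11.5 replicate 2 (of 17 tested). With counts under 10 set to 0, 4 of 13 entries were called, and miR-290a-5p (adjusted p 0.0642), miR-291b-5p (0.0636) and miR-293-3p (0.0759) were among those lost. The share of all entries called in that setting is not given here. The calls of miR-291a-5p, miR-292a-5p and miR-293-5p held under every alternative in which they could be fitted. So did that of miR-295-3p, which had passed the filter with the help of E8.5. After E8.5, miR-291a-5p had reached the filter's limit on only 2 to 5 counts in a library.

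**Figure D4:**
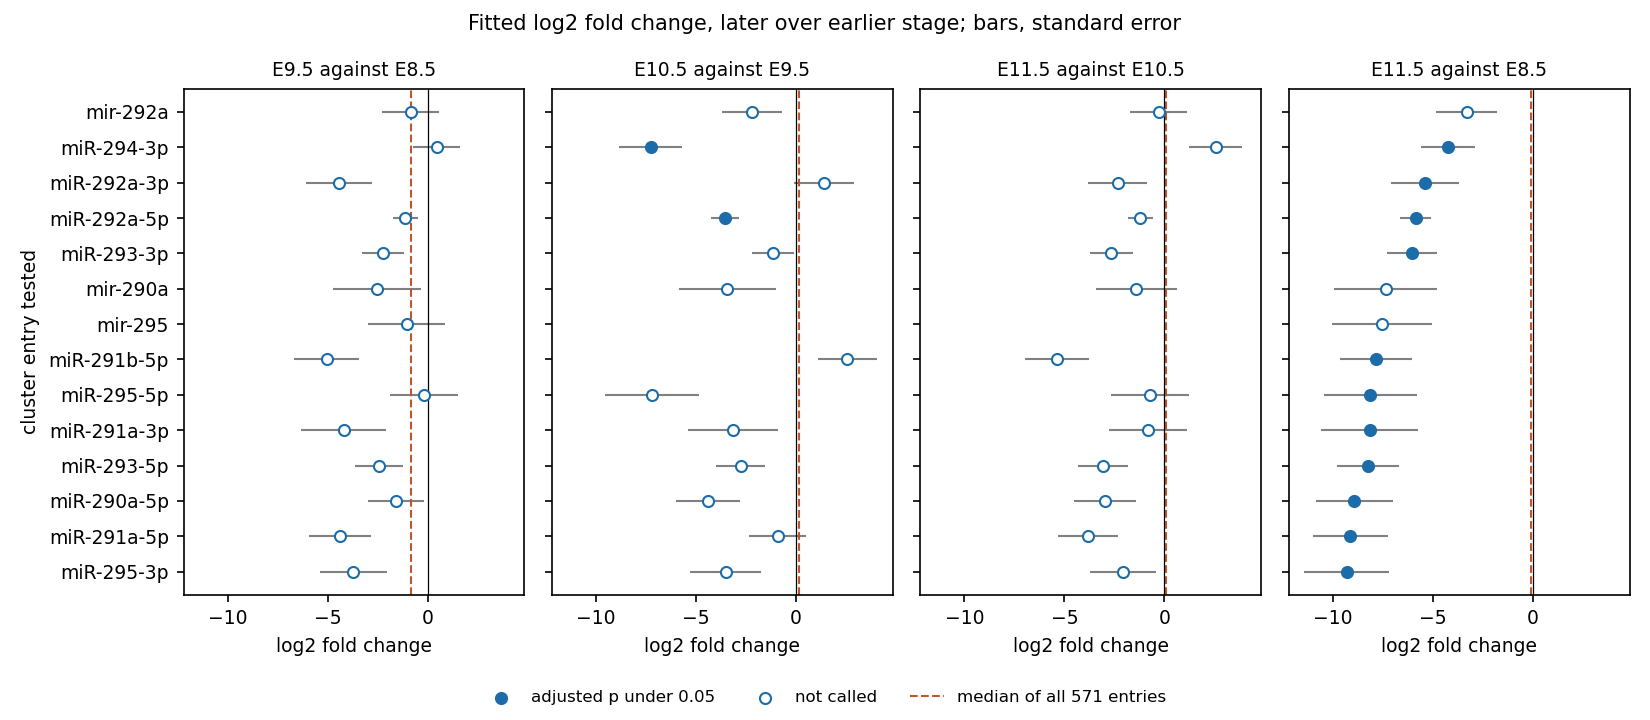
Fitted log2 fold change (later over earlier stage, bars showing the SE) of the cluster entries tested in each of 4 comparisons, filled where the adjusted p was under 0.05, with a dashed line at the median of all 571 entries and mir-295 left out where a stage had 0 counts. The filled points number 0, 2, 0 and 11 from left to right, and in the last panel all 14 points lie left of the median of all entries.

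Most values of the cluster after E8.5 were near 0, and most of the others lay near a count level taken from all entries of the library. Of the 171 values of the 19 entries in the 9 libraries of E9.5 to E11.5, 64 were 0, 74 were 1 to 9 counts and 33 were 10 or more. For each library a second count level was taken as the point, in a fixed range above the lowest counts, where entries were densest, at 30.3 to 124 reads. Such a point is found in any library. The density there was 1.87 (E9.5 replicate 3) to 8.12 times (E8.5 replicate 3) that at the lowest point below it. Of the 33 values, 19 lay within 2-fold of the second count level of their library, 7 lay below that range and 7 above it. The level lies where entries are densest, and the share of all entries in that range is not given here. The 19 are therefore not read as particular to the cluster. Of the 7 above, 5 were miR-292a-5p (every E9.5 library, E10.5 replicate 3 and E11.5 replicate 3), 1 was miR-294-3p in E9.5 replicate 1 and 1 was mir-292a in E11.5 replicate 1. The 82 counts of miR-292a-3p and 81 counts of miR-291b-5p in E10.5 replicate 2 lay near the level of 61.4 reads there. What sets the second count level was not tested. With each library divided by it and rounded, 2 entries of the cluster were left to test, miR-292a-5p and miR-293-3p. Both were called lower at E9.5 than at E8.5 (log2 fold changes -1.56 and -3.04, adjusted p 0.00424 and 0.0149 by edgeR) and lower at E11.5 than at E8.5. The share of all entries called after this division is not given here, so these calls are not read as particular to the cluster.

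**Figure D5:**
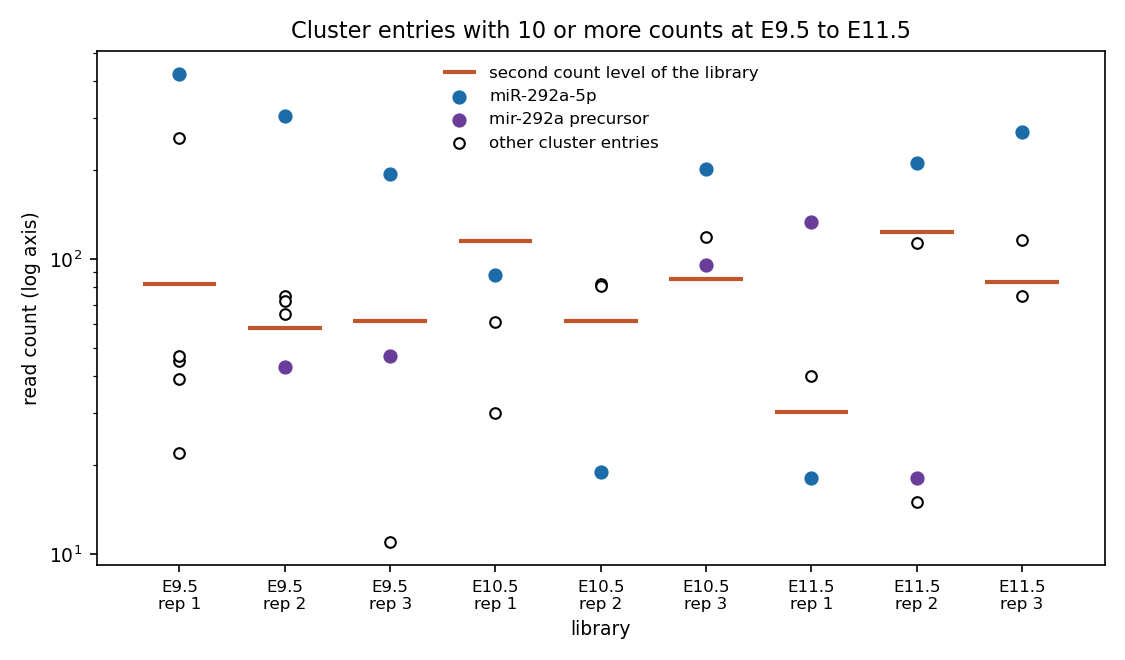
Read count (log axis) of each cluster entry with 10 or more counts in the 9 libraries of E9.5 to E11.5, with a bar at the second count level of each library. miR-292a-5p stands more than 2-fold above the bar in 5 libraries, and most open circles, the other entries, lie close to it.

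The mature miRNAs whose levels ran most like the sum of the cluster across the 12 libraries came mostly from the miR-302 and miR-367 cluster. By Pearson's r of log2(CPM + 1) with the cluster sum over 12 libraries, given as a description since stages and depth are shared, miR-302b-3p was at 0.958, miR-302a-5p at 0.916, miR-302d-3p at 0.912, miR-302a-3p at 0.905 and miR-92a-2-5p at 0.882. The median of the 366 mature entries compared was -0.018. Over the 9 later libraries alone, miR-302b-3p was at 0.933. The summed miR-302 and miR-367 arms were at 54115 ± 15835, 7448 ± 3178, 1808 ± 144 and 459 ± 192 CPM in stage order. The ratio of the cluster to these arms was 0.346 to 0.626 (E8.5), 0.530 to 2.14 (E9.5), 0.439 to 0.862 (E10.5) and 0.332 to 1.19 (E11.5), so the stages overlapped in this ratio. Of the 8 miR-302 and miR-367 arms tested, 3, 1 and 1 were called lower in the successive comparisons of neighbouring stages, and all 8 at E11.5 against E8.5. Of all entries tested, 1.58%, 2.8%, 0.35% and 6.3% were called lower in these 4 comparisons.

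Within the AAGUGCU seed, the cluster was the smaller part. Among the arms with that seed and a RefSeq sequence, miR-291a-3p, miR-294-3p and miR-295-3p together held 2227 ± 188 CPM at E8.5, against 42449 ± 12224 CPM for miR-302b-3p and miR-302d-3p. The cluster's share of these counts was 3.84% to 7.83% (E8.5), 6.78% to 41.3% (E9.5), 0.5% to 2.31% (E10.5) and 0% to 29.8% (E11.5). The high values at E9.5 and E11.5 came from miR-294-3p. miR-292a-3p and miR-302a-3p (8886 ± 3114 CPM at E8.5), without a RefSeq sequence, were assigned no seed and are not in these sums. The shares hold only for the arms counted. The other 5 seeds of the cluster were carried by no other mature entry of the table that has a RefSeq sequence.

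The list of arms with the related miR-17 seed and the let-7 list ran differently. The 6 arms of the miR-17 seed family, which promotes proliferation, summed to 11462 ± 1314 CPM at E8.5 and to 5245 ± 3068, 5024 ± 492 and 5308 ± 655 CPM at the later stages. Of these, 1 of 6 was called lower at E11.5 than at E8.5 (6.3% of all entries). The let-7 arms, which are known to oppose the stem cell miRNAs, went from a sum of 9480 ± 3415 CPM (E8.5) to 93760 ± 47054 CPM (E9.5). Of 9 let-7 arms tested, 5 rose at E9.5 (4.03% of all entries were called higher) and 4 fell at E10.5 against E9.5 (2.8% of all entries). At E11.5, 4 were higher than at E8.5 (5.25% of all entries). Over E11.5 against E8.5 the median log2 fold change was -8.49 for the miR-302 and miR-367 arms, -2.03 for the miR-17 seed family and 1.94 for let-7, beside -7.70 for the cluster.

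Marker miRNAs of other cell types also moved between the stages, and their part in the results was not tested. The muscle list (miR-1a-3p, miR-133a-3p and miR-206-3p) had all 3 members detected at E8.5 and E9.5 and 2 of 3 later, with miR-133a-3p at 0. Its sum spanned 6324 to 26705 CPM (E8.5), 5310 to 27015 (E9.5), 268 to 3539 (E10.5) and 282 to 1721 (E11.5), and its means had the same order of stages as the cluster's. The endothelial list (2 of 2 members detected) ran from 1832 to 2295 CPM at E8.5 and from 32.7 to 432 CPM later. The hepatic list (3 of 3) ran from 471 to 722 CPM at E8.5 and from 40726 to 131731 CPM later. The leukocyte list (2 of its 3 members are in the table) reached 2671 CPM at E9.5 and at most 59.6 CPM elsewhere. The mesenchymal list (5 of 5 detected after E8.5, miR-199a-5p at 0 at E8.5) ran from 1418 to 13250 CPM over all stages, the neural list (3 members) from 0 to 510.5 CPM and the Sfmbt2 cluster (3 of 5 in the table), which is high in trophoblast, from 509 to 4885 CPM. The erythroid list had 1 of 3 members in the table, at 0 to 78.4 CPM.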

How the data were processed

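Small RNA of 12 libraries of sorted mouse cells was profiled, with 3 libraries at each of 4 stages taken from the sample titles. The file that the authors deposited gives raw counts of reads for each mature and precursor miRNA entry. Per the study's methods it was made with the COMPSRA pipeline on mm10 with STAR (the submitters' processing notes also list GRCm39), after the adapter and random bases were trimmed. Per the file headers, reads of 17 to 35 bases (17 to 36 in 2 libraries) were kept. The random bases were not used to count molecules, so counts are reads after PCR. Replicate libraries differed by more than sampling noise (chi-square per degree of freedom 30.2 to 111), so each counted as 1.

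From the deposited counts, all 12 libraries were fitted together with edgeR 4.0.16 (glmQLFit and glmQLFTest, R 4.3.3), with TMM factors of 0.732 to 1.17, the filterByExpr filter (minimum count 10, minimum total 15), a prior count of 0.125 and Benjamini-Hochberg adjustment. CPM used TMM-scaled library totals, and shares used unscaled totals. Intervals are 95% Wilson intervals (scipy 1.17.1), and the limit for a count of 0 was 3 counts. Alternatives were RLE scaling, library size alone, no filter, DESeq2 1.42.0, only the stages compared, counts under 10 set to 0, counts divided by the second count level, leaving out mir-6236 and mir-6240, mature entries only, a replicate block and leaving out each library. Setting a count of 0 at the limit of its library, and leaving out 1 library from a bound, were added after the data were seen. Entries with at least 1000 counts in total were given library by library, and the 5 mature entries most alike in pattern were named by Pearson's r. The members and lists were chosen with earlier results of these data known. Sequences came from RefSeq and positions from GENCODE, both on GRCm38.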

Additional observations from a re-analysis of the deposited data

How the results depend on the processing

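The number of cluster entries called at E9.5 against E8.5 was 0 and became 2 with no filter on low counts, 2 by DESeq2, 2 with only the compared stages in the fit and 2 after division by the second count level, with 0 to 1 when 1 library was left out. At E10.5 against E9.5 it was 2 and became 6 by DESeq2 and 1 after that division, with 1 to 3 when 1 library was left out (1 without E10.5 replicate 2). At E11.5 against E10.5 it was 0 and became 1 by DESeq2. At E11.5 against E8.5 it was 11 and became 4 with counts under 10 set to 0. After the division, which left 2 entries to test, it was 2. It became 13 by DESeq2, and 14 of 15 tested with only the compared stages in the fit. It was 7 to 13 when 1 library was left out. The share of all entries called under each alternative is not given here. Leaving out a library also changed the filter, so that 14 to 17 cluster entries were tested in those fits. The replicate block gave 0, 2, 0 and 10 calls in the order of these comparisons. Libraries with the same number did not deviate together (r of -0.148 to 0.112 over 18 pairs), so the numbers only name the libraries. Among 1137 log2 fold changes refitted, 1057 kept their direction and side of the threshold, 34 lost a call, 25 gained one and 21 turned direction, none of them called before or after. RLE scaling shifted the median of all entries by 0.64 at E9.5 against E8.5, -0.46 at E10.5 against E9.5, -0.22 at E11.5 against E10.5 and -0.14 at E11.5 against E8.5, and library size alone shifted it by -0.26 in the first and -0.16 in the last.

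The turned values were these. At E9.5 against E8.5, miR-295-5p (-0.18) was at 0.31 under RLE, 0.31 by DESeq2, 0.28 with only the compared stages and 0.024 without mir-6236 and mir-6240, and ran from -4.12 to 0.55 with 1 library left out. miR-294-3p (0.46) was at -0.039 with counts under 10 set to 0 and ran from -1.47 to 1.02. At E10.5 against E9.5, miR-292a-3p ran from -2.40 to 2.05 and miR-291b-5p from -2.32 to 3.25 with 1 library left out. At E11.5 against E10.5, mir-292a (-0.28) was at 0.55 with the replicate block and ran from -3.49 to 3.56, mir-295 was at -0.088 by DESeq2, miR-292a-3p ran from -7.14 to 1.51, miR-291a-3p from -2.32 to 1.79, miR-295-3p from -2.66 to 1.87, miR-295-5p from -1.29 to 1.87 and mir-290a from -2.29 to 1.14. The cause was not tested. The share of the mature arms at E8.5 was 2.77% of mature counts alone, against 2.48% of all counts, because precursors leave the total, and the other shares moved by less than 1 SD. The depth of the E9.5 libraries limits what can be said of single members there.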
